A study of Mus musculus with 6 samples.

Results

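Guanylate-binding proteins (Gbp) are a family of mouse genes for large GTPases, and the members described here were the genes listed as Gbp1 to Gbp10 in the deposited table. They were found by their gene symbol, with 1 transcript cluster, the probe set that sums a whole gene on these arrays, taken per gene. Of the 10 genes, 9 had a cluster of their own among 23385 genes measured, and Gbp2 had only a cluster shared with the gene listed as Gbp1. By its Entrez identifier the gene listed as Gbp1 is now named Gbp2b, and it is called Gbp2b below. The table also held Gbp11, which the RefSeq gene table gives as a transcribed pseudogene and which is no member.

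The cells measured were 4T1, a triple-negative line (no HER2 and no oestrogen or progesterone receptor, per the labels) from a mouse mammary tumour, taken after 24 h of co-culture with bone marrow-derived mouse macrophages. The PI group (3 arrays) had macrophages of a pro-inflammatory polarisation, and the AI group (3 arrays) had macrophages of an anti-inflammatory one. The labels name neither the agents used for polarisation nor the strain of the mice. The macrophages of each replicate came from an individual mouse, while the tumour cells were 1 line throughout. All arrays were of the tumour fraction left after CD11b-labelled macrophages had been depleted, and no array of 4T1 cells cultured alone was compared, so a difference between PI and AI does not say which co-culture moved a gene. Values are RMA levels on the log2 scale, in which 1 unit is a doubling of signal, and differences are PI minus AI.

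Guanylate-binding proteins are among the genes most strongly induced by interferon gamma in mouse cells, including non-immune cells. The proteins bind GTP, assemble on the membranes of vacuoles that hold pathogens and on bacteria, and act there together with the immunity-related GTPases, a second family of interferon-induced GTPases. Several members carry a C-terminal CaaX box to which a lipid is attached, and some promote inflammasome activity. In the mouse the genes lie in clusters on chromosome 3, which holds Gbp5, Gbp7, Gbp3, Gbp2b and Gbp2 in this order, and on chromosome 5, which holds Gbp8, Gbp9, Gbp4, Gbp10 and Gbp6 in this order. The members are close paralogues and probe sequences were not used here, so binding of one member's RNA to another member's probes cannot be told apart from that member's own signal.

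Promoter sequences from RefSeq (build GRCm38.p6, 250 bases before to 50 bases after the annotated start, 300 bases in all) were matched by gene identifier for 5 of the 10 members, the 5 on chromosome 3. Gbp4, Gbp6, Gbp8, Gbp9 and Gbp10 had no entry. An interferon-stimulated response element (ISRE), the DNA element bound by interferon regulatory factors, was searched by its core, a repeat of TTTC with any 2 bases between the copies, on both strands (on the opposite strand, a repeat of GAAA with the same spacing). All 5 promoters held the core, each as the TTTC repeat, against 3.99% of the 27025 genes with a promoter entry and 3.44% of the 32851 promoter entries. The stretches around it are shown for comparison between members, on the plus strand, 5′ to 3′, with 15 bases to either side and the core in capitals.
Gbp5: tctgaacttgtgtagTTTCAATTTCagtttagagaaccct
Gbp7: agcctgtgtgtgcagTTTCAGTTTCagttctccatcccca
Gbp3: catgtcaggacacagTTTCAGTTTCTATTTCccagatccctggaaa
Gbp2b: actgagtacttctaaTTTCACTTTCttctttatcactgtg
Gbp2: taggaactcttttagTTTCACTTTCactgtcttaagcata
The letters between the repeats were the same in Gbp2b and Gbp2 (TTTCACTTTC), and Gbp7 shared TTTCAGTTTC with Gbp3. Gbp3 held a further match that overlapped the first by 4 bases, and its other annotated start held none. The core began 165 bases before the start in Gbp5 and 137 bases before it in Gbp2b, but only 59, 53 and 45 bases before it in Gbp2, Gbp7 and Gbp3.

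The gamma-activated site (GAS), the element bound by STAT dimers, was searched as TTCNNNGAA, which reads the same on both strands. Of the 5 promoters 2 held it, those of Gbp5 and Gbp7 with 2 matches each, against 9.55% of the 27025 genes, and no match overlapped an ISRE core. In Gbp7 the matches began 106 and 87 bases before the start, and in Gbp5 they began 245 and 52 bases before it. These matches describe letters in a window and are not measured binding sites. The whole promoters are given for the 3 chromosome 3 members that passed the test described below, with the ISRE core in capitals.
Gbp7, chr3:142530086-142530385: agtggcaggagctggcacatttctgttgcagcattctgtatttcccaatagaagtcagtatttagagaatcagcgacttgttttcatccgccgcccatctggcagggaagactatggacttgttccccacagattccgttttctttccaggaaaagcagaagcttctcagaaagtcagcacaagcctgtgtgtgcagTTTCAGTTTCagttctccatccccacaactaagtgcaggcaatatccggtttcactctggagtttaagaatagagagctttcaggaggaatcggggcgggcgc
Gbp3, chr3:142559794-142560093: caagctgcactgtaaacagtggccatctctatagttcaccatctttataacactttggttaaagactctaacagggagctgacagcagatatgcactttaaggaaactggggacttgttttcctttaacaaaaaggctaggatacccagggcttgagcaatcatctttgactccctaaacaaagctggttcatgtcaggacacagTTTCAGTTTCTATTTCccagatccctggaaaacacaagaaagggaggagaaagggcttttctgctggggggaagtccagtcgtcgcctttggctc
Gbp2b, chr3:142594597-142594896: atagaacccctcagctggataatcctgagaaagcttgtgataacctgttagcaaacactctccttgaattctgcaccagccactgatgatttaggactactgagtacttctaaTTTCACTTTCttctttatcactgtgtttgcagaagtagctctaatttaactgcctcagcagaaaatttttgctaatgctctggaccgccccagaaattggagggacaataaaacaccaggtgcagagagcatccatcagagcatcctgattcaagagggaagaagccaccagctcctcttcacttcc

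**Figure D1:**
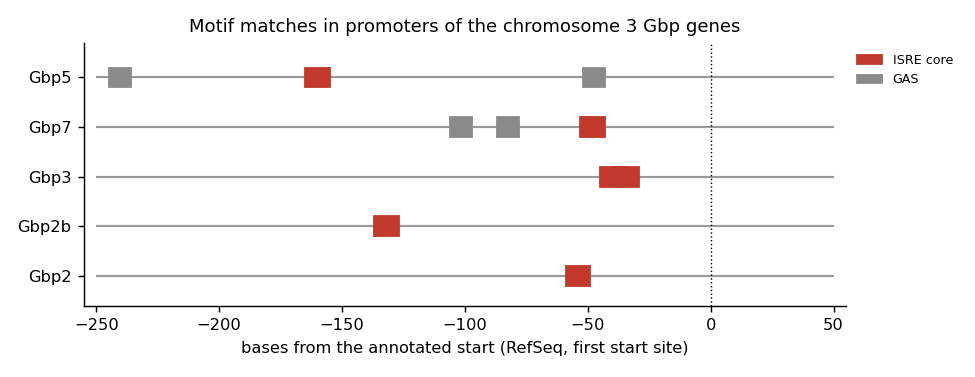
Positions of ISRE core matches (red) and GAS matches (grey) in the RefSeq promoters of the 5 chromosome 3 Gbp genes, in bases from the annotated start (dotted line). All 5 hold an ISRE core, and Gbp5 and Gbp7 hold GAS matches.

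Among the promoters of related genes, the ISRE core was found in 6 of 6 immunity-related GTPases with an entry and in 2 of 13 genes of interferon-gamma signalling. It was found in 0 of 10 other large GTPases of the dynamin superfamily, which were listed as non-induced genes. GAS was found in 5 of the 6 immunity-related GTPases, 4 of the 13 signalling genes and 0 of the 10 other large GTPases.

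Several Gbp members were higher in the tumour fraction of PI co-cultures. Of the 9 members with a cluster of their own, 4 were higher in PI (Gbp2b, Gbp3, Gbp4 and Gbp7), 0 were lower and 5 did not pass limma's test at an adjusted p of 0.05, where 0.0727% of all genes tested were called higher and 0% lower. All 9 had a positive difference, against 47.3% of all genes, from 0.67 to 1.87 with a median of 1.26, beside a median of -0.01 over all genes. In 8 of the 9 every PI array exceeded every AI array, against 5.85% of all genes, and 6 of the 9 differed by 1 or more, against 0.103% of all genes. The count of 4 members was 0 without PI replicate 2, where 0.00428% of all genes were called higher, and 2 (Gbp3 and Gbp4) without PI replicate 3, where 0.0171% were. With values floored at the 20th percentile of each array it was 1 (Gbp3), where 0.00855% of all genes were called higher, and in an unmoderated test it was 0, where 0% were. With the replicate number as a block the count was also 0, where 1 of all genes passed.

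**Figure D2:**
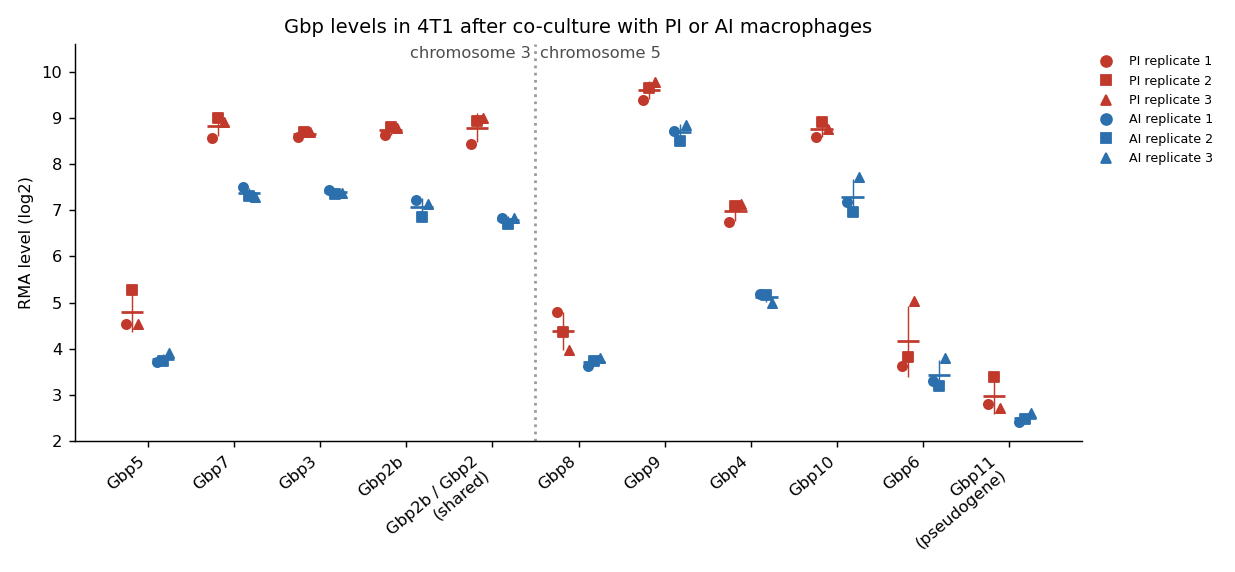
RMA level (log2) of each Gbp cluster on every array, PI in red left of AI in blue, in chromosomal order, with group means (horizontal bars) and SD (vertical lines, n = 3 each). In Gbp6 the groups overlap, while in every other cluster drawn they do not.

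On chromosome 3, Gbp2b, a mouse protein recruited to the vacuole of the parasite Toxoplasma, had levels of 8.63, 8.80 and 8.77 on the PI arrays, against 7.23, 6.86 and 7.14 on the AI arrays. The groups did not overlap, with a gap of 1.395 between the lowest PI and the highest AI array. Gbp2b averaged 8.73 ± 0.10 in PI and 7.08 ± 0.19 in AI (SD, n = 3 each), 3.15-fold higher in PI with 95% limits of 2.62 and 3.80 (limma adjusted p = 0.00511).

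Gbp3 had levels of 8.58, 8.68 and 8.69 in PI, against 7.45, 7.35 and 7.37 in AI. The arrays of each group lay close together and the groups were 1.13 apart. Gbp3 averaged 8.65 ± 0.06 in PI and 7.39 ± 0.05 in AI (SD, n = 3 each), 2.40-fold higher in PI with 95% limits of 2.11 and 2.72 (limma adjusted p = 0.00459), and by p-value it ranked 2 among all genes tested. In the authors' deposited table Gbp3 had the smallest q-value of the family, 0.113, with a fold of 0.417 AI over PI.

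Gbp7, which has been linked in mouse macrophages to delivery of the phagocyte oxidase, had levels of 8.57, 8.99 and 8.91 in PI, against 7.51, 7.32 and 7.29 in AI. The groups did not overlap. Gbp7 averaged 8.82 ± 0.22 in PI and 7.37 ± 0.12 in AI (SD, n = 3 each), 2.74-fold higher in PI, with 95% limits of 2.23 and 3.37 (limma adjusted p = 0.0131). Its call was lost more often than those of the other 3. It passed without PI replicate 1 and did not pass when any other single array was left out, with adjusted p-values of 0.0915 without PI replicate 2, 0.0963 without PI replicate 3, and 0.05265, 0.0598 and 0.0665 without AI replicates 1, 2 and 3.

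Gbp5, which promotes assembly of the NLRP3 inflammasome in mouse macrophages, gave a low signal. Its levels were 4.54, 5.27 and 4.55 in PI, against 3.72, 3.73 and 3.90 in AI. PI replicate 2 was the high array, and the groups did not overlap. Gbp5 averaged 4.79 ± 0.42 in PI and 3.78 ± 0.10 in AI (SD, n = 3 each), and the difference of 1.003 did not pass the test (limma adjusted p = 0.328). Without PI replicate 2 it was 0.76.

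Gbp2, whose protein is also recruited to the Toxoplasma vacuole, was measured only on the cluster annotated to both Gbp2b and Gbp2, and its signal cannot be assigned to either gene. That cluster had levels of 8.44, 8.92 and 9.01 in PI, against 6.84, 6.69 and 6.84 in AI, with no overlap. The difference of 1.998 (3.99-fold, 95% interval 3.04 to 5.24) was larger than that of any cluster of a single member, but whether it differs from the 1.66 of the cluster annotated to Gbp2b alone was not tested. When all 41345 clusters were tested, its limma adjusted p was 0.0528, and in that test 0.0193% of clusters were called higher and 3 of the 9 single-member clusters passed (Gbp2b, Gbp3 and Gbp4).

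On chromosome 5, Gbp4, reported in the mouse as a negative regulator of the transcription factor IRF7, had the largest difference of the 9 members. Its levels were 6.73, 7.10 and 7.13 in PI, against 5.19, 5.16 and 4.99 in AI. The groups were 1.55 apart, the widest gap among the 9. Gbp4 averaged 6.99 ± 0.22 in PI and 5.11 ± 0.10 in AI (SD, n = 3 each), 3.66-fold higher in PI with 95% limits of 3.00 and 4.47 (limma adjusted p = 0.00486).

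Gbp10 had levels of 8.59, 8.91 and 8.75 in PI, against 7.18, 6.97 and 7.72 in AI. AI replicate 3 was the high array of its group, and all PI arrays still lay above it. Gbp10, which has been reported to protect mouse macrophages against intracellular bacteria, differed by 1.46 (2.75-fold, 95% interval 2.03 to 3.73), which did not pass (limma adjusted p = 0.0701). Without AI replicate 3 the difference was 1.68 and it passed (limma adjusted p = 0.0356), where 7 of all genes in the test passed. When any other single array was left out Gbp10 did not pass, with limma adjusted p-values from 0.212 to 0.282.

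Gbp9 had levels of 9.39, 9.64 and 9.79 in PI, against 8.71, 8.50 and 8.85 in AI. The groups did not overlap, and the gap between them was 0.54. Gbp9 averaged 9.61 ± 0.20 in PI and 8.69 ± 0.18 in AI (SD, n = 3 each). The difference of 0.92 (1.89-fold, 95% interval 1.53 to 2.34) did not pass (limma adjusted p = 0.0924).

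Gbp8 and Gbp6 gave low signals. Gbp8 had levels of 4.80, 4.37 and 3.98 in PI, against 3.62, 3.74 and 3.79 in AI. The PI arrays were spread widely, and the lowest of them lay only 0.18 above the highest AI array. The difference was 0.67, with 95% limits of 0.22 and 1.11 (limma adjusted p = 0.562).

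Gbp6, reported like Gbp10 to act against intracellular bacteria in mouse macrophages, had levels of 3.62, 3.83 and 5.04 in PI, against 3.30, 3.20 and 3.79 in AI. It was the member in which the groups overlapped, since AI replicate 3 lay above PI replicate 1. The difference of 0.73 had 95% limits of -0.10 and 1.56 (limma adjusted p = 0.704), and without PI replicate 3 it was 0.29. The pseudogene Gbp11 gave levels of 2.80, 3.39 and 2.71 in PI, against 2.41, 2.48 and 2.60 in AI, and its difference of 0.47 did not pass (limma adjusted p = 0.653).

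**Figure D3:**
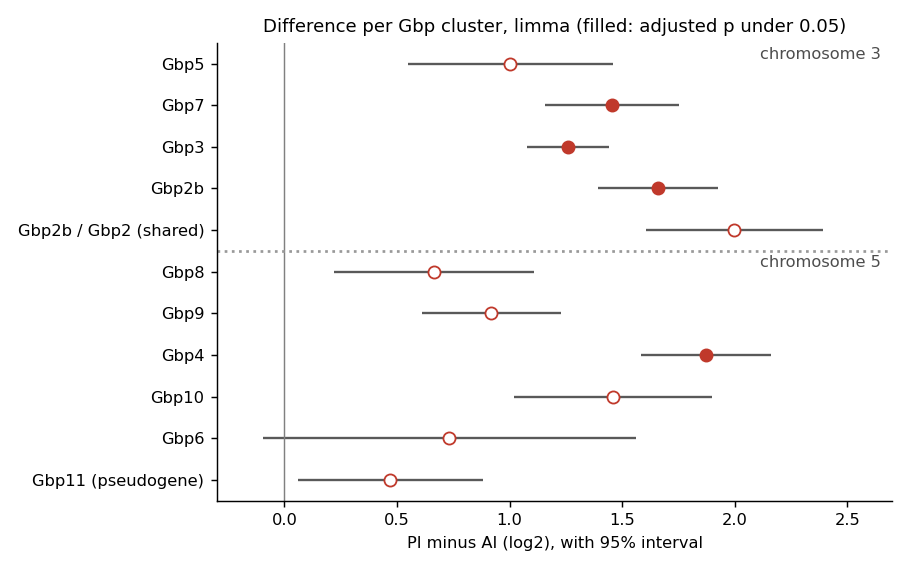
PI minus AI (log2) with the 95% interval from limma for each Gbp cluster, chromosome 3 above chromosome 5, with filled points for an adjusted p under 0.05 over all genes (over all clusters for the shared one). Gbp2b, Gbp3, Gbp4 and Gbp7 are filled, and Gbp6 has an interval that includes 0.

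Members of both chromosomal clusters were among the 4 called higher in PI, 3 from chromosome 3 and 1 from chromosome 5. Of the members that did not pass, Gbp9 and Gbp10 gave signals above the median of all genes, and Gbp5, Gbp6 and Gbp8 gave signals below it. By array signal averaged over the 6 arrays, Gbp5, Gbp8 and Gbp6 lay at percentiles 44.4, 40.4 and 35.3 of the genes tested, and the other 6 members at percentiles 62.7 to 91.3. With only genes above the median level tested, all 6 members left in the test passed, including Gbp9 (limma adjusted p = 0.0332) and Gbp10 (limma adjusted p = 0.02446), where 0.342% of genes were called higher.

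The low place of PI replicate 1 was shared by most members, while the highest PI array differed between them. Averaged over the 9 members, the levels were 7.05, 7.29 and 7.29 on PI replicates 1, 2 and 3, against 5.99, 5.87 and 6.09 on the AI replicates. PI replicate 1 was the lowest PI array for 8 of the 9, the exception being Gbp8, in which it was the highest. In Gbp5 it lay only just below PI replicate 3, at 4.542 against 4.546. Replicate 2 was the highest PI array for 4 of the 9 and replicate 3 for 4. Over all genes PI replicate 1 was the lowest PI array for 35.4%. The members are measured on the same arrays and are not independent of each other. The median SD over the members was 0.22 in PI and 0.12 in AI, beside 0.12 in PI and 0.12 in AI over all genes. Within PI the members' SD ran from 0.06 for Gbp3 to 0.77 for Gbp6.

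The genes outside the family whose pattern over the 6 arrays was nearest to the members' mean pattern were found by the root mean square difference of values centred on each gene's own mean. Irgm1 was nearest at 0.07, followed by Irgm2 at 0.10, Uba7, which activates ISG15 for conjugation, at 0.11 and Tap1, a peptide transporter for MHC class I, at 0.11. Among the members themselves the distance to that mean ran from 0.08 for Gbp3 to 0.49 for Gbp6. Irgm1 had levels of 8.40, 8.70 and 8.72 in PI, against 7.43, 7.12 and 7.44 in AI. It was picked by its pattern on these same arrays, so its likeness to the members is no separate result.

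The immunity-related GTPases, the family that works with the Gbp proteins at pathogen vacuoles, were also higher in PI. Of 7 listed genes 5 were measured on a cluster of their own. Of these, 4 were higher in PI, 0 were lower and 1 did not pass, with a median difference of 1.42, where 0.0727% of all genes were called higher. Iigp1 had the largest difference, 2.64, while Igtp had 1.86 and Irgm2 1.42 (limma adjusted p = 0.00309, 0.0109 and 0.00881). All PI arrays lay above all AI arrays in each of the 5, against 5.85% of all genes. PI replicate 1 was the lowest PI array in all 5, against 35.4% of all genes.

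Genes of interferon-gamma signalling were taken from the ligand and receptor to the transcription factors and feedback inhibitors. Of 15 measured, 1 was higher in PI, 0 were lower and 14 did not pass, with a median of 0.03 beside -0.01 over all genes. In that test 0.0727% of all genes were called higher and 0% lower. Irf1, a transcription factor that binds ISRE letters, had levels averaging 7.77 in PI and 6.90 in AI, a difference of 0.87 that did not pass (limma adjusted p = 0.0541). Stat2, a subunit of the factor activated by type I interferon, had a difference of 1.03 (limma adjusted p = 0.0711). The receptor chain Ifngr2 had a difference of -0.19 and the other receptor chain, Ifngr1, a difference of -0.16. The ligand gene Ifng gave a low signal, averaging 3.40 in PI and 3.56 in AI.

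Proteins that act with or on the Gbp proteins were described as further lists. Since 0.0727% of all genes were called higher and 0% lower, a count of 0 does not set a short list apart. Of the 11 ubiquitin-like conjugation proteins of the kind that guide Gbp proteins to vacuoles, 0 were called higher and 0 lower in PI, with a median of 0.08. Ube2l6, the conjugating enzyme for ISG15, had the largest value among them, 0.71 (limma adjusted p = 0.0605), while Map1lc3b had 0.14 and Gabarapl2 0.16. Of the 9 inflammasome and pyroptosis partners 0 passed, with a median of 0.20. Casp1 had a difference of 0.38, Casp4, the caspase that senses bacterial lipopolysaccharide, 0.31, and the cytokine Il18 0.26. These 3 were named for their small p-values within the list. All PI arrays lay above all AI arrays in 4 of the 9, these 3 among them, against 5.85% of all genes. Of the 5 measured enzymes that attach or process CaaX lipids 0 passed, with a median of -0.09 and values of -0.17 for Fnta, -0.09 for Icmt and -0.11 for Rce1.

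Large GTPases outside the Gbp family gave a comparison within the dynamin superfamily. They were listed as non-induced genes, so their differences do not describe large GTPases in general. Of 10 measured, 0 passed, where 0.0727% of all genes were called higher and 0% lower. Their differences lay between -0.08 and 0.09 with a median of -0.02. Dnm1l, which divides mitochondria, had -0.07, the atlastin Atl1, an endoplasmic reticulum GTPase related in structure to the Gbp proteins, had -0.08, and the dynamin Dnm3 had 0.09.

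**Figure D4:**
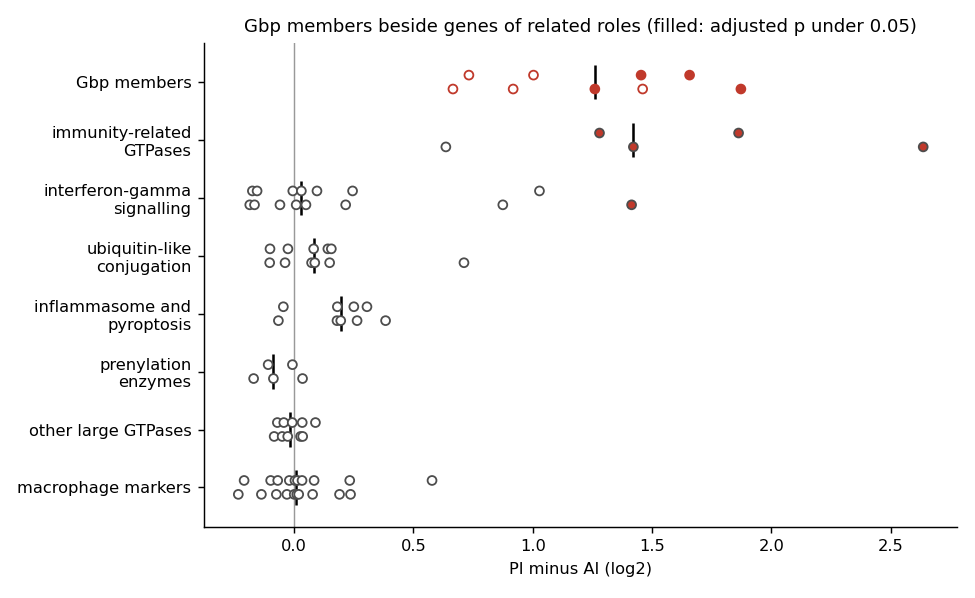
PI minus AI (log2) of each Gbp member beside genes of related roles and macrophage markers, with 1 point per gene (filled: adjusted p under 0.05) and the list median as a vertical bar. The Gbp members lie between 0.67 and 1.87 and the other large GTPases, listed as non-induced genes, between -0.08 and 0.09.

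The tumour label was set against marker genes. The epithelial keratins Krt8 and Krt18 gave high signals, averaging 10.70 and 10.89 in PI and 10.81 and 11.11 in AI, Epcam averaged 5.69 in PI and 5.88 in AI, and Krt19, Cldn7 and Cldn4 ranked nearer the middle of all genes by signal, at 44.6, 41.8 and 50.4 on the percentile scale. Of 11 epithelial markers 0 passed the test, where 0.0727% of all genes were called higher and 0% lower. Their median difference was -0.11, with values from -0.41 for Krt14 to 0.06 for Krt19. All PI arrays lay below all AI arrays in 3 of the 11 (Krt14, Epcam and Krt8) and above them in 0. For all genes only the share above, 5.85%, was counted, so whether 3 of 11 below is unusual cannot be told. Of the receptor genes, Erbb2, which encodes HER2, averaged 7.78 in PI and 7.93 in AI, Esr1 5.39 in PI and 5.18 in AI, and Pgr 3.18 in PI and 3.07 in AI, at percentiles 80.5, 56.0 and 18.2 by signal. These arrays give no detection call by which a gene could be said to be absent. Correlations between arrays over all clusters lay between 0.987 and 0.990.

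Macrophages express Gbp genes too, and in a bulk fraction a change in the number of such cells and a change in RNA per cell cannot be told apart. Of 20 macrophage markers 0 passed the test, where 0.0727% of all genes were called higher and 0% lower. At these shares a count of 0 does not set the markers apart from other genes. Their median difference was 0.01, with values from -0.23 for Cd14 to 0.58 for Mpeg1. All PI arrays lay above all AI arrays in 1 of the 20, Mpeg1, against 5.85% of all genes. In 1 other, Cd14, all PI arrays lay below all AI arrays, a position for which no share of all genes was counted. Their log2 levels summed to between 84.7 and 86.5 on the PI arrays and between 84.2 and 85.7 on the AI arrays. Itgam, which encodes the depleted CD11b, averaged 2.98 in PI and 2.97 in AI, at percentile 14.4 of the genes tested, and Adgre1 averaged 3.74 in PI and 3.74 in AI. Other markers gave higher signals, with Cd14 averaging 8.23 in PI and 8.47 in AI, Cd68 7.51 in PI and 7.48 in AI, and Cx3cr1 6.34 in PI and 6.11 in AI, at percentiles 85.1, 76.7 and 64.4. Of 10 markers of T and NK cells 0 passed, beside the same shares of all genes. The signal that macrophage RNA left in the fraction adds to the Gbp clusters was not measured.

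**Figure D5:**
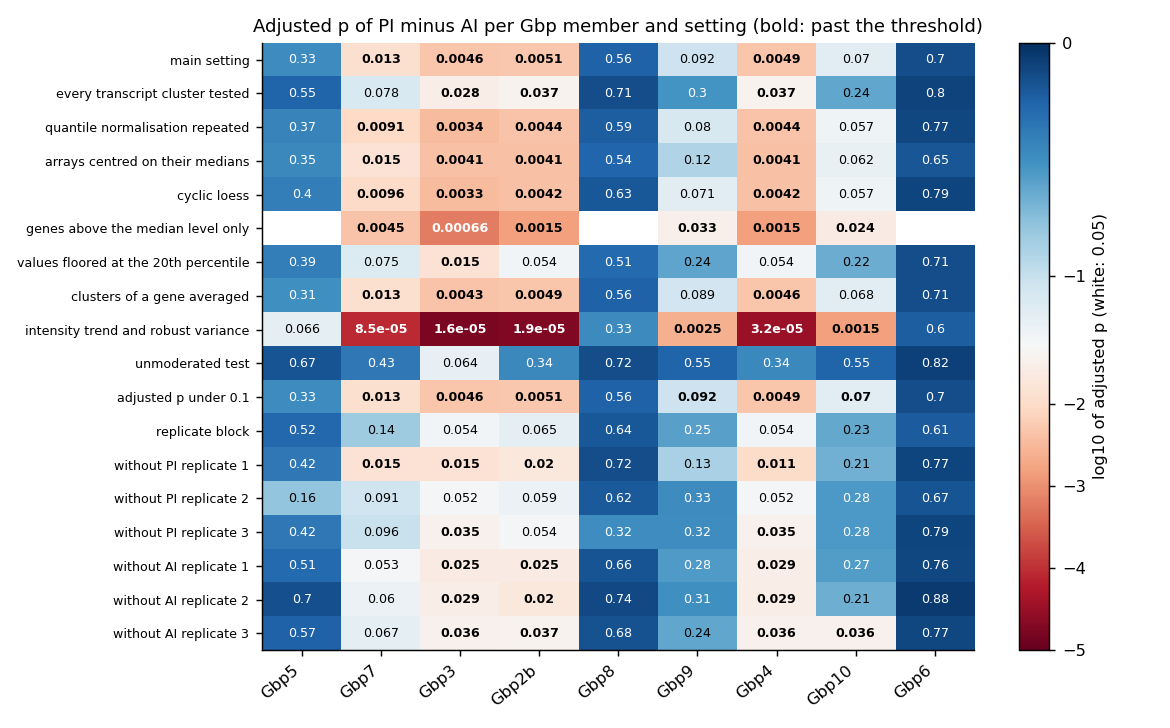
Adjusted p of PI minus AI for each Gbp member (columns, in chromosomal order) under the reported setting and each alternative (lines), with bold figures past the threshold and empty cells where a gene was not tested. Gbp3 and Gbp4 each passed in 5 of the 6 fits that left out an array, and Gbp5, Gbp6 and Gbp8 passed in none of the settings drawn.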

How the data were processed

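Affymetrix arrays of 4T1 tumour fractions (3 PI, 3 AI) were grouped by their titles. The deposited values are log2 levels per transcript cluster, and the submitters' processing notes name Affymetrix Expression Console and RMA, without versions. Both deposited tables held the same log2 values, with 0 differing among 41345 clusters. Unused per-sample columns numbered 0. The version of the array annotation and the genome build are not stated there. Per the file headers, the authors also deposited a p-value, a q-value and a fold for each cluster, and their test is not stated.

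Clusters with 1 gene symbol (24724) were used, symbols were updated by Entrez identifier with RefSeq GRCm38.p6 (23652 matched), and the brightest cluster stood for each of 23385 genes. The comparison of PI with AI used limma 3.58.1 under R 4.3.3 (lmFit, eBayes, group as the only term, two-sided, Benjamini-Hochberg over all genes, threshold 0.05), as tested on simulated data. An exact permutation test of 3 against 3 cannot go below p = 0.1 and was not used. The number of arrays limits the precision, with a median standard error of 0.11. No scan or slide batches are given. Figures were drawn in Python 3.11.15 with matplotlib 3.10.9.

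The members, lists and tests were chosen with earlier results of these data known. Named genes were all members, up to 3 of smallest p per list, and the 5 nearest in pattern. The receptor chains Ifngr1 and Ifngr2 were named outside this rule. Macrophage, epithelial, receptor and T or NK cell genes are given as marker values. One gene taken by this rule enters the counts and is not named here. Alternatives covered normalisation, filters, cluster choice, variance model, threshold, replicate block and left-out arrays.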

Additional observations from a re-analysis of the deposited data

How the results depend on the processing

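All 9 members kept a positive difference after repeated quantile normalisation, centring and cyclic loess, and in each fit that left out an array. In the other settings the members tested had the same differences as in the main setting, so these settings say nothing further about the sign. The count of 4 higher members stayed between 3 and 6 after testing every cluster, repeated quantile normalisation, centring, cyclic loess, averaging of clusters, testing only genes above the median level, an intensity trend with robust variance, and a threshold of 0.1. It was 3 with every cluster tested, where 8 of 41345 clusters passed, beside 17 of 23385 genes in the main setting. It was 6 in the last 3 of these settings, where 42, 76 and 42 of all genes in the test passed. It was 1 (Gbp3) with values floored at the 20th percentile, 0 in the unmoderated test, in which 2 of all genes passed, and 0 to 4 when single arrays were left out. With the replicate number as a block 0 members passed, and 1 of all genes did. Deviations of PI and AI arrays from their group means correlated at 0.041, 0.006 and 0.057 for equal numbers. For unequal numbers the values ran from -0.075 (PI replicate 3 with AI replicate 1) to 0.038 (PI replicate 2 with AI replicate 1). These small values do not settle whether equal numbers mark pairs, which the labels do not state. The median difference of 1.26 was 1.46 among the 6 members above the median level, since Gbp5, Gbp6 and Gbp8 then left the test, and 1.24 to 1.296 when single arrays were left out. Of the 55 measured genes in the related lists 5 passed, against 8 of the 50 above the median level when only such genes were tested. Of the 55, 8 passed with an intensity trend and robust variance, 1 with floored values and 0 in the unmoderated test. In the same order, 17, 42, 76, 2 and 2 of all genes in the test passed. After repeated quantile normalisation, centring and cyclic loess 6, 5 and 6 passed, where 20, 18 and 21 of all genes did. The cause of these changes was not tested. The arrays give no measure of signal over background, so its part in the members of low signal (Gbp5, Gbp6 and Gbp8) was not tested.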
